A study of Mus musculus with 24 samples.

Results

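Predicted genes carry provisional mouse symbols made of the letters Gm and a number. In the deposited liver table, 52 of 24421 gene entries were Gm entries with at least 3 digits in the symbol and 500 or more counts summed over 24 libraries, with Gm30505 and Gm15441 left out by rule. The table held 1229 such Gm symbols in all, of which 366 had at least 1 count. The members were selected on their summed counts, so their levels are described and not tested. Just inside the limit stood Gm16617 with 503 counts and Gm16796 with 501, and just outside stood Gm9199 and Gm14137 with 480 each. The pair left out by name held 811098 counts (Gm30505) and 51016 counts (Gm15441).

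The libraries came from livers of male C57Bl/6J mice, with 3 libraries in each of 8 groups. CD groups ate a low-fat diet with 13% fat and WD groups a Western-style diet with 42% fat. Groups marked +VC inhaled vinyl chloride, an industrial chemical that the liver oxidises, at 0.85 ± 0.1 ppm for 6 hours a day, 5 days a week, over 12 weeks, and the others breathed air. Groups marked w12 were taken directly after those 12 weeks, and groups marked m12 after 9 more months of housing. The diets were fed for 12 weeks in the w12 groups and for 12 months in the m12 groups. Whether the 3 libraries of a group stem from separate mice is not stated in the labels, and p-values therefore speak only of the spread among the libraries at hand. One library, w12_WD 3, held 607 counts, and the other 23 held 126160 to 962493, with a median of 384262. CPM below means counts scaled to a library total of 1000000. In those 23 an entry with 0 counts has an upper limit of 3 counts, or 3.12 to 23.8 CPM depending on the library, for counting error alone. Summed over 8 hepatocyte markers, all of them detected, these libraries held 2427 to 32395 CPM. In each library that sum was below the single entry Gm10069, which ranged from 45626.5 to 131645 CPM. Marker sums below are therefore values of entries as counted and no measure of the amount of a cell type. Of 5 erythroid markers, 4 (Hba-a1, Hba-a2, Hbb-bs and Hbb-bt) were at 0.

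A Gm symbol is given to a gene model predicted during genome annotation for which no name tied to a function has been set. Many such models are long non-coding RNAs, and a common kind is the antisense RNA, which is read from the DNA strand opposite a named gene and can overlap its exons. Others are pseudogenes, which are copies of genes that have lost an intact reading frame, or protein-coding models. Where 2 genes share bases on opposite strands, a read falls to the right gene only if both the library and the counting keep track of strand. The kit named in the labels does not mark strand, and no source at hand gives the strand setting used in counting. Reads of a Gm entry and of its opposite-strand partner therefore cannot be told apart within the shared bases, and all values below are those of entries in the table.

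GENCODE M21 on GRCm38 (mm10) placed 46 of the 52 members and the RefSeq gene table for the same build placed the other 6. GENCODE and RefSeq together classed 26 as antisense, 6 as lincRNA, 5 as processed transcripts, 5 as protein coding, 4 as other lncRNA, 4 as transcribed pseudogenes of either kind, 1 as sense intronic and 1 as a bidirectional-promoter lncRNA. Among the protein-coding ones, Gm166 is listed in GENCODE M21 under the name Ccdc189, so that entry no longer counts as nameless there. Exons of 42 members overlapped exons of a named gene on the other strand, and in 35 of these pairs the shared bases included coding bases of the partner. A further 5 members lay within the span of a named gene without a known exon overlap, among them, on the other strand, Gm19897 (Sirt2), Gm10007 (Gfra1) and Gm10677 (Cadm1), and with no recorded strand, Gm2518 (Taf6l). The remaining 5 had no such partner, namely Gm21188, Gm5088, Gm3336, Gm5148 and Gm15760. No partner was shared by 2 members. Shared bases covered a median of 19.8% of a member's exonic bases, from 1.75% to 100%.

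The stretches below show what such an overlap looks like in 5 pairs to which the results turn. Each is read 5′ to 3′ along the member's strand from the GENCODE M21 transcripts, the 120 capitals are member exon bases that lie opposite a coding exon of the partner, and lower-case bases belong to the member exon beyond that coding exon. For every pair, the reverse complement of the capitals was found in the partner's transcript. Gm10069 has the most counts and lies opposite Pzp at chr6:128502166-128502295 (plus strand). Gm12992 lies opposite Srsf4 at chr4:131900245-131900384, Gm2061 opposite Slc30a10 at chr1:185455044-185455183, Gm16617 opposite Arhgef40 at chr14:51988690-51988821 and Gm20319 opposite Il1rap at chr16:26714681-26714820, all on the minus strand.
Gm10069: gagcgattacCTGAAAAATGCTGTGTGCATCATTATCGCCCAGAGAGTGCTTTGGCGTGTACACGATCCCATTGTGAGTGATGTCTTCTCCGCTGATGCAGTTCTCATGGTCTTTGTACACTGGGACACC
Gm12992: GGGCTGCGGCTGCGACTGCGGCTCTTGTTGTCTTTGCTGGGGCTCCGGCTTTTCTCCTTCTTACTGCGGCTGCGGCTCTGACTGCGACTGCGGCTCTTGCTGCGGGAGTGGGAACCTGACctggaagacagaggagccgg
Gm2061: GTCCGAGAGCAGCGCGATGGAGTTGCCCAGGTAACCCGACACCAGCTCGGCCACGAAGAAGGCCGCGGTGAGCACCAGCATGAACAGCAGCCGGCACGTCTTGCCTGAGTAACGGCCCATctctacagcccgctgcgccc
Gm16617: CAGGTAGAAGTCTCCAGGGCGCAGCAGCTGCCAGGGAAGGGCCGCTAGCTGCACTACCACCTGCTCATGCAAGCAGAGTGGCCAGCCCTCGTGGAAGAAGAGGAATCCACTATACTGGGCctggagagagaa
Gm20319: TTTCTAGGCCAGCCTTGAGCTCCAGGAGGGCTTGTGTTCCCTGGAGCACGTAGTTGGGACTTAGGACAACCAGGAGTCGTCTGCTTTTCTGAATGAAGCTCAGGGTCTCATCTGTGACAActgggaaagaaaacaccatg
In Gm2061 the last 3 capitals are the complement of the Slc30a10 start codon, so this exon runs antisense across the first coding bases of that gene. The exon of Gm12992 crosses a coding exon of Srsf4 whose shared block is 805 bases long, and the repeated ctgcgg units in it mirror the serine- and arginine-rich coding sequence of that splicing factor. The capitals hold 49.2% G and C in Gm10069 and 64.2% in Gm12992 and Gm2061.

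The 52 entries took 9.83% of all 8606009 counts, of which Gm10069 alone took 7.67% and the other 51 together 2.16%. Over 23 libraries their joint share ran from 6.43% to 15.6%, with a median of 10.2%. All 52 passed the expression filter, and 51 of them had counts in each of the 23 libraries, the exception being Gm10389 with 0 counts in m12_WD 3. In w12_WD 3, with 607 counts, Gm10069 had 84 and most members had none.

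By group, the joint share was 11.8% ± 1.80 in w12_CD, 12.6% ± 2.91 in w12_CD+VC, 12.7% ± 3.42 in w12_WD and 11.5% ± 1.09 in w12_WD+VC (mean ± SD, n = 3). At 12 months the control diet gave 11.3% ± 2.28 in air and 9.29% ± 0.853 with exposure. The Western diet gave 6.71% ± 0.468 in air and 8.48% ± 1.21 with exposure. The m12_WD group was the lowest, and the 12-week means ran only from 11.5% to 12.7%. Without the library of 607 counts, the other w12_WD libraries stood at 10.3% and 11.2%. Gm10069 made most of this pattern, with 11.7%, 8.05% and 7.35% in the m12_CD libraries and 4.56%, 4.84% and 5.12% in the m12_WD libraries, ranges that did not overlap. The other 51 together took 2.24%, 2.28% and 2.40% in m12_CD and 1.88%, 1.59% and 2.12% in m12_WD. These ranges did not overlap either, and the m12_CD+VC group was as low as m12_WD, at 1.85% ± 0.209 against 1.86% ± 0.269.

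**Figure D1:**
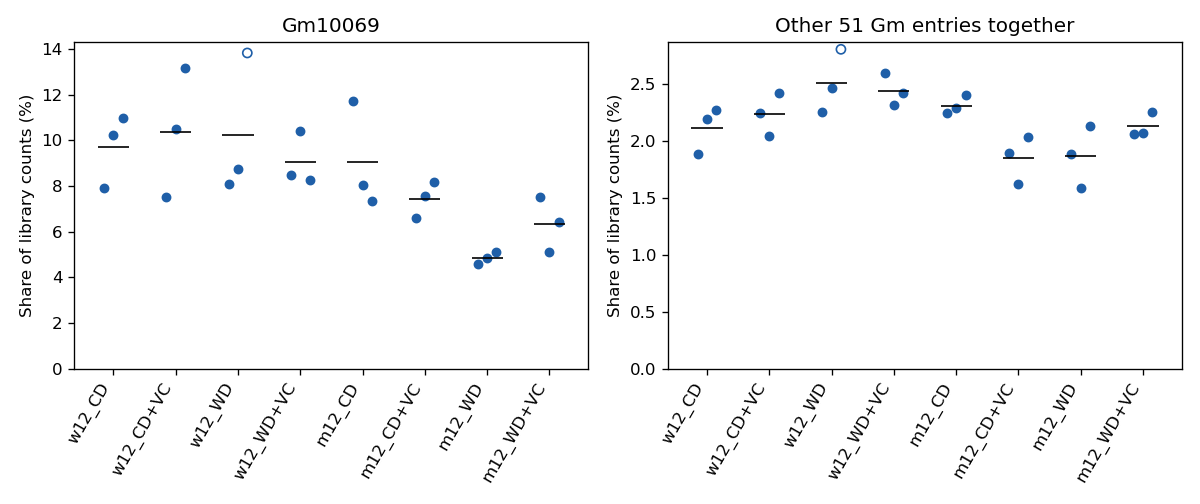
Share of each library's counts (%, linear axis from 0) taken by Gm10069 (left) and by the other 51 Gm entries together (right), by group. Points are libraries, lines are group means over 3 libraries, and the open circle is the library with 607 counts. The 3 m12_WD libraries sit at 4.56% to 5.12% for Gm10069.

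Most members held more counts than the named gene they overlap. This was so in 38 of the 42 pairs with shared exon bases and in 43 of all 47 pairs, and in 29 pairs the member had over 10-fold more. Members had to reach 500 counts and partners faced no such floor. The rule itself therefore favours an excess in members, also per kilobase, and these counts of pairs are a description only. Gm10069 (chr6:128438757-128503281, plus strand) had 660325 counts against 7207 for Pzp, which encodes a secreted protease inhibitor of the alpha-2-macroglobulin family. The 303 shared bases make up 6.93% of the exonic bases of Gm10069. Counts per entry do not show where along it the reads lie, so the part of the shared bases was not tested. Per kilobase of all exonic bases, on counts pooled over 24 libraries, Gm10069 held 17558 CPM per kb and Pzp 131 CPM per kb. Gm12992 (chr4:131899478-131920029, minus strand) had 30454 counts against 1843 for Srsf4, or 603 against 60.1 CPM per kb.

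The 4 exceptions among the 42 were Gm20319 with 1450 counts against 34011 for Il1rap, Gm16548 with 2944 against 5542 for Selp, Gm10658 with 1070 against 2290 for Ptpn9, and Gm16617 with 503 against 1214 for Arhgef40. Il1rap encodes the accessory chain of the interleukin-1 receptor, Selp the adhesion molecule P-selectin and Ptpn9 a tyrosine phosphatase. Per kilobase, 41 of the 42 members were higher than their partner. Gm20319 was the one that was not, with 149.8 CPM per kb against 348 CPM per kb for Il1rap. At the other end, Gm16712 had 1148 counts against 1 for Ebi3, a cytokine subunit, and Gm10653 had 1321 against 3 for Cln6, a membrane protein of the endoplasmic reticulum. These last pairs, Gm10658 and the 5 members without a partner are named from their counts.

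**Figure D2:**
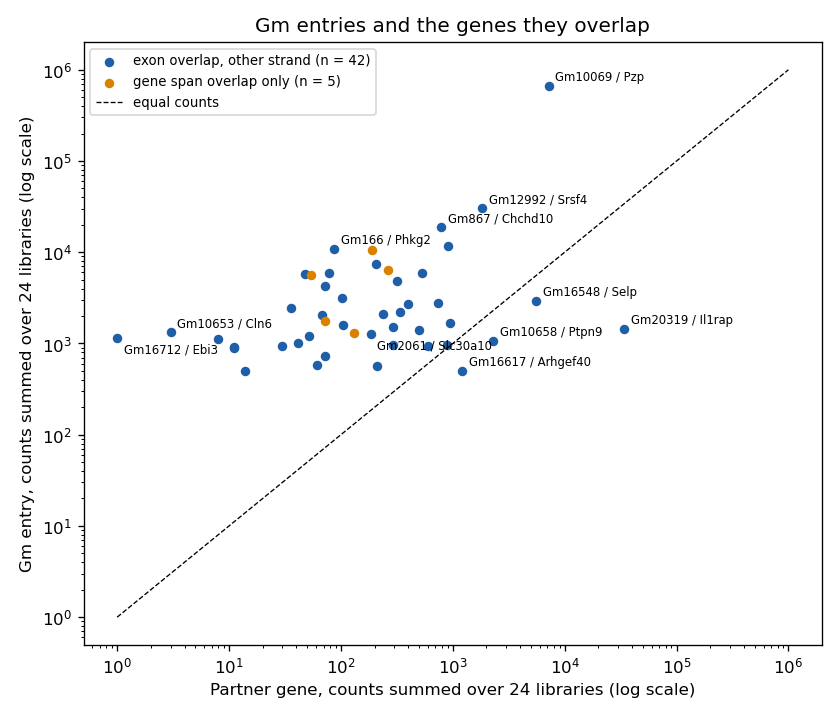
Counts of each Gm entry summed over 24 libraries (vertical, log scale) against counts of the gene it overlaps (horizontal, log scale), for 47 pairs. Blue points share exon bases on opposite strands (42 pairs), orange points overlap by gene span only (5 pairs), and the dashed line marks equal counts. Of the pairs, 43 lie above the line, where the rule set a floor of 500 counts for the Gm entries and none for their partners.

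The 12 members with most counts were Gm10069, Gm12992, Gm867, Gm6297, Gm166, Gm19897, Gm10532, Gm10007, Gm16062, Gm16982, Gm11747 and Gm10677. Gm867 (chr10:75937723-75940672, minus strand), a protein-coding model, shares 25 exonic bases with Chchd10, the gene of a mitochondrial intermembrane protein, and over 23 libraries ranged from 876 to 4775 CPM with a median of 1832 CPM. Gm6297 (chr4:40720154-40722398, minus strand) overlaps Dnaja1, the gene of a heat-shock co-chaperone, and ranged from 841 to 3269 CPM with a median of 1195 CPM. Gm166 (chr7:127582383-127588595, minus strand) overlaps Phkg2, the catalytic subunit of phosphorylase kinase, and ranged from 808 to 1531 CPM with a median of 1288 CPM.

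Gm19897 (chr7:28774899-28781514, minus strand), within the span of the deacetylase gene Sirt2, ranged from 956 to 1545 CPM with a median of 1237 CPM. Gm16062 (chr11:59810080-59818491, plus strand), opposite the signalosome subunit gene Cops3, ranged from 484 to 812 CPM with a median of 709 CPM. Gm11747 (chr11:118444200-118454995, minus strand), opposite the secreted-protein gene C1qtnf1, ranged from 293 to 939 CPM with a median of 655 CPM. Gm10677 (chr9:47799160-47818208, minus strand) lies within Cadm1, a cell adhesion gene, and ranged from 241 to 833 CPM with a median of 638 CPM. Gm11747 and Gm10677 passed no test below as reported, though Gm11747 did in 2 alternatives.

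A test of any difference over the 8 groups passed an adjusted p of 0.05 in 25 of the 52 members, where 29.8% of all 4198 genes tested passed (edgeR's quasi-likelihood test with Benjamini-Hochberg adjustment over all 4198). For reference, 1423 entries with 500 or more counts are neither members nor have symbols ending in Rik, and they include Gm30505 and Gm15441. Of these, 45.1% passed, so the count is close to that of genes of similar depth. Leaving out the group with the 607-count library, the group with a member's lowest mean was m12_WD for 24 of 52 members, m12_CD+VC for 9, w12_CD+VC for 8 and at most 5 in each other group. The ratio of a member's highest to lowest group mean over those 7 groups had a median of 2.07 and ran from 1.34 to 15.0. The heat map of group means shows this as a dark column at m12_WD for the upper rows.

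**Figure D3:**
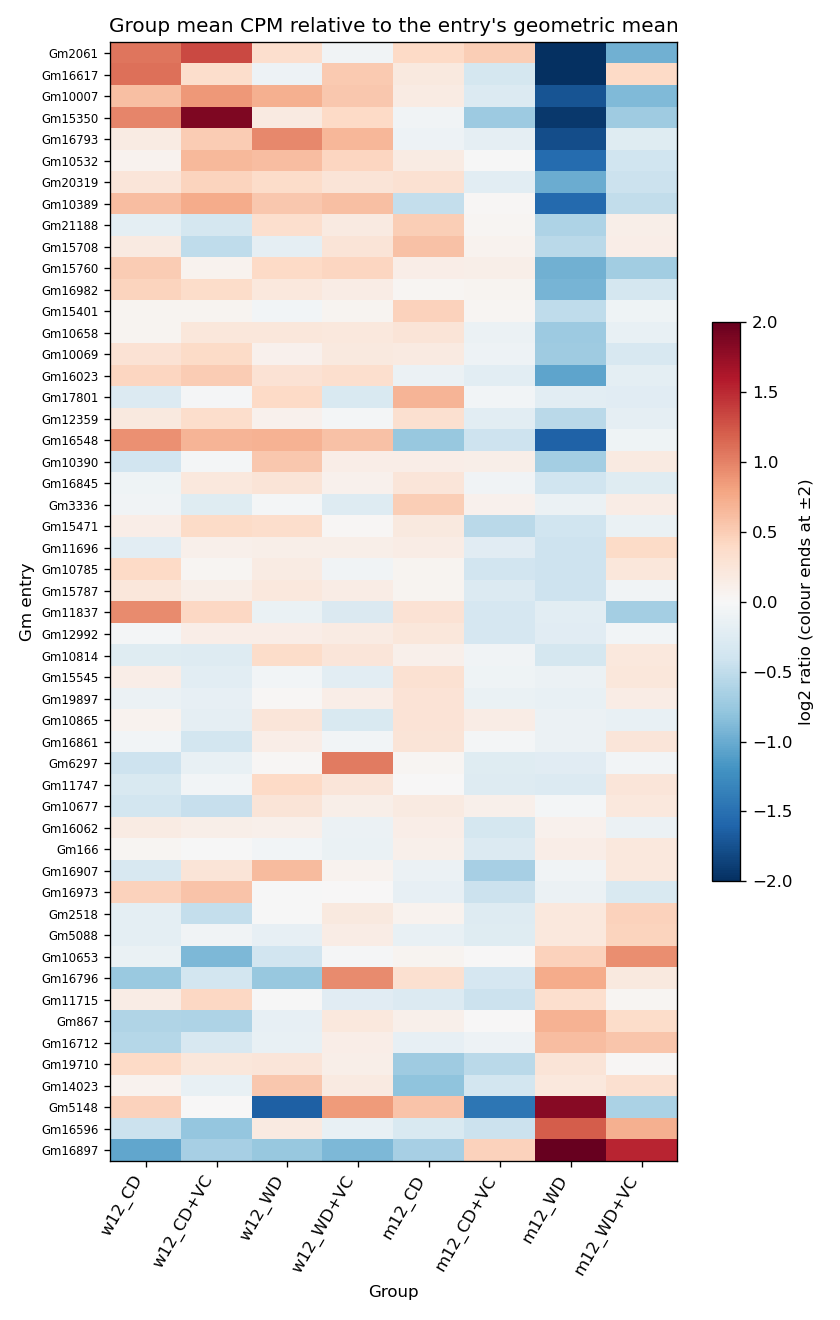
Log2 ratio of each group's mean CPM to the geometric mean over the 8 groups (colour, ending at ±2) for 52 Gm entries (rows) in 8 groups (columns), with the 607-count library left out of w12_WD. Rows are ordered by the log2 change between m12_WD and m12_CD, lowest at the top. Gm2061 and Gm16617 are lowest in m12_WD, and Gm16897 and Gm16596 are highest there.

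The Western diet at 12 months without vinyl chloride gave the most calls among members. Of the 52, 31 passed, 2 higher and 29 lower in m12_WD than in m12_CD, against 24.3% of all genes tested (13.3% higher and 11.1% lower). The libraries of both groups did not overlap in 24 of these 31. Without regard to the test, 23 members were separated downward and 5 upward, where 9.43% and 28.9% of all genes were. The median log2 change was -0.84 over the members and 0.11 over all genes tested.

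These edgeR changes are on TMM-scaled counts, and the scaling factors were 0.701 to 0.900 in m12_CD and 1.03 to 1.14 in m12_WD. A change therefore reads lower than the plain CPM values beside it, and by CPM alone 37 of 52 members had a lower mean in m12_WD, with a median ratio of 0.721. Another size-factor method (RLE) moved the median of all genes by 0.39 on the log2 scale and left 21 calls, 4 higher and 17 lower. The split over all genes turned with scaling, from 557 higher and 465 lower as reported to 908 and 260 with RLE and 268 and 642 with scaling on no-overlap genes. Relative to the median of all genes, the members' median stood at -0.95 as reported and between -0.94 and -0.98 under RLE, library totals alone and scaling on no-overlap genes.

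The largest fall was in Gm2061 (chr1:185447116-185455568, minus strand), a lincRNA model opposite Slc30a10, the gene of a manganese exporter. Its 3 m12_CD libraries held 202, 179 and 139.7 CPM and its m12_WD libraries 16.7, 24.6 and 24.9 CPM. All 3 m12_WD values lay below every library of the other groups, and the test gave a log2 change -3.32, SE 0.41, edgeR adjusted p = 4.73e-07. Slc30a10 itself was near the floor, with 24.1, 17.0 and 12.9 CPM and 0, 7.37 and 11.4 CPM, and did not pass (log2 change -1.71, SE 0.71, edgeR adjusted p = 0.0753).

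Gm16617 (chr14:51986425-51988827, minus strand), opposite the guanine-nucleotide exchange factor gene Arhgef40, held 63.2, 55.3 and 67.3 CPM in m12_CD and 14.8, 14.7 and 7.27 CPM in m12_WD. It fell (log2 change -2.75, SE 0.43, edgeR adjusted p = 2.13e-05), with 6 to 8 counts behind each m12_WD value, while Arhgef40 did not pass (log2 change -0.61, SE 0.35, edgeR adjusted p = 0.207). Gm10007 (chr19:58296204-58300348, plus strand), within Gfra1, the gene of a receptor for a glial neurotrophic factor, held 897, 559 and 1058 CPM and 259, 273 and 140.3 CPM. Its groups did not overlap and it fell (log2 change -2.31, SE 0.33, edgeR adjusted p = 6.41e-06), whereas Gfra1 had a change of opposite sign that did not pass (log2 change 1.20, SE 0.57, edgeR adjusted p = 0.122).

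Gm10532 (chr18:75514645-75522806, plus strand), antisense to the translation factor gene Ctif, held 897, 1139.5 and 903 CPM and 324, 255 and 327 CPM. The m12_WD libraries were all below the lowest m12_CD library, and the entry fell (log2 change -2.05, SE 0.31, edgeR adjusted p = 1.18e-05). Gm20319 (chr16:26714446-26755502, minus strand), antisense to Il1rap, held 265, 198 and 168 CPM and 83.3, 78.6 and 94.5 CPM. It fell (log2 change -1.68, SE 0.32, edgeR adjusted p = 2.36e-04), and Il1rap, at 3664, 4488 and 4649 CPM and 3147, 3171 and 3329 CPM, had a log2 change -0.77, SE 0.30, edgeR adjusted p = 0.0559. Gm16982 (chr7:141610066-141613747, minus strand), antisense to Ap2a2, a clathrin adaptor subunit gene, held 744, 714 and 706 CPM and 396, 381 and 330.4 CPM. It fell as well (log2 change -1.35, SE 0.25, edgeR adjusted p = 2.09e-04), and its m12_WD libraries lay below every library of the other groups.

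Gm10069 fell too, from 90379.7 ± 23454 CPM to 48416 ± 2796 CPM (mean ± SD, n = 3, log2 change -1.31, SE 0.36, edgeR adjusted p = 0.00747). Its partner Pzp rose over the same libraries, from 157, 576 and 450.2 CPM to 1214, 2083 and 434 CPM (log2 change 1.31, SE 0.42, edgeR adjusted p = 0.0256), although the CPM values of m12_WD 3 lay within the m12_CD range. The pair therefore passed in opposite directions as reported. These diet changes of Gm10069 and Pzp were not followed through the alternatives. In the test over the 8 groups Gm10069 passed (edgeR adjusted p = 0.0217) and kept the call in 30 of 31 alternatives. It lost the call with scaling on no-overlap genes (edgeR adjusted p = 0.333).

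The 2 members that rose were Gm16897 and Gm16596. Gm16897 (chr1:194955759-194976960, minus strand), antisense to the non-coding A330023F24Rik, held 30.1, 17.0 and 23.3 CPM in m12_CD and 142, 152 and 163 CPM in m12_WD. The groups lay far apart (log2 change 2.33, SE 0.45, edgeR adjusted p = 3.26e-04), and no 12-week library exceeded 35.3 CPM. Gm16596 (chr12:108537243-108555618, minus strand), antisense to the microtubule-binding protein gene Eml1, held 60.2, 78.7 and 59.5 CPM and 142, 169 and 252 CPM. It rose (log2 change 1.15, SE 0.32, edgeR adjusted p = 0.00853), but did not pass without m12_CD 3 (0.0586) or without m12_WD 3 (0.0887), nor with scaling on no-overlap genes (0.168) or without an expression filter (0.101), all edgeR adjusted p.

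Of the 17 called members whose partner had enough counts to be tested, 12 had a partner with the same sign and 4 had a partner that passed, beside 24.3% of all genes. Those 4 were Selp (with Gm16548), Ptpn9 (with Gm10658) and Srsf4 (with Gm12992), all lower like the member, and Pzp, which was higher. For Gm12992 the m12_CD libraries held 3610.1, 4224 and 4414 CPM and the m12_WD libraries 3110.5, 2716 and 3201 CPM (log2 change -0.81, SE 0.27, edgeR adjusted p = 0.0282), and Srsf4 had a log2 change -0.75, SE 0.27, edgeR adjusted p = 0.0403. For Gm16548 (chr1:164148591-164152217, minus strand), a lincRNA model, the values were 123, 157 and 285 CPM and 102, 113 and 97.7 CPM (log2 change -1.22, SE 0.36, edgeR adjusted p = 0.0139), beside 1081, 867 and 691 CPM and 266, 349 and 316 CPM for Selp (log2 change -1.90, SE 0.28, edgeR adjusted p = 7.54e-06).

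Entries with the other common kind of provisional symbol were also mostly lower where they passed. Among 131 entries with symbols ending in Rik and 500 or more counts, 62 passed (2 higher, 60 lower), with a median log2 change of -0.77. Among the 1423 other entries of that depth, 461 passed (226 higher, 235 lower), with a median of -0.13. Entries whose exons overlap no gene on the other strand took 15.5% ± 3.58 of counts in m12_CD and 25.8% ± 3.91 in m12_WD, and their median log2 change was 0.48 against -0.16 for entries with an overlap. The summed markers of Kupffer cells and macrophages were 30.1 to 103 CPM in m12_CD and 355 to 420.0 CPM in m12_WD, and those of hepatocytes 2427 to 8844 and 7690 to 17420 CPM. Summed markers of cholangiocytes were 0 to 10.3 and 81.4 to 216 CPM, of stellate cells 0 to 14.9 and 90.4 to 118 CPM, and of sinusoidal endothelium 12.9 to 24.1 and 87.0 to 145 CPM. The part of these differences in the members' falls was not tested, and fewer cells of a type and less RNA per cell cannot be told apart in whole tissue. The count of 31 became 20 without m12_WD 2 and 14 with DESeq2, 12 of the 14 lower. Calls over all genes fell too, from 1022 of 4198 to 738 of 4538 and 731 of 4198 in those fits.

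With vinyl chloride, the same diet comparison gave 1 call among the 52, where 1.45% of all genes passed. This was Gm2061, with 218, 127 and 211 CPM in m12_CD+VC and 84.8, 57.7 and 61.6 CPM in m12_WD+VC. The groups did not overlap and it fell (log2 change -1.51, SE 0.39, edgeR adjusted p = 0.0420), but the call was lost in 7 of 14 alternatives, with an edgeR adjusted p of up to 0.242 without m12_WD+VC 2. The median log2 change over members was 0.26, with 36 above 0 and 16 below, against -0.01 over all genes. It was 0.11 over the Rik entries with 500 or more counts and 0.14 over the other entries of that depth. Libraries were separated upward in 10 members and downward in 3, where 12.2% and 12.5% of all genes were. Summed hepatocyte markers were 14919.5 to 32395 CPM in m12_CD+VC and 5861 to 8857 CPM in m12_WD+VC. Those of cholangiocytes were 7.81 to 28.3 and 42.4 to 92.4 CPM, and those of lymphocytes 0 in each m12_CD+VC library and 7.07 to 18.7 CPM in m12_WD+VC. By the limit of 3 counts, a 0 in those m12_CD+VC libraries allows 7.81 to 23.8 CPM, so the lymphocyte sums lie at the floor and are not separated. The part of these marker sums in the members' values was not tested. The 29 members that fell without vinyl chloride had a median log2 change of -1.26 there and 0.02 with it, where 15 lay above 0 and 14 below. As the first comparison chose these 29, the medians are given as a description.

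**Figure D4:**
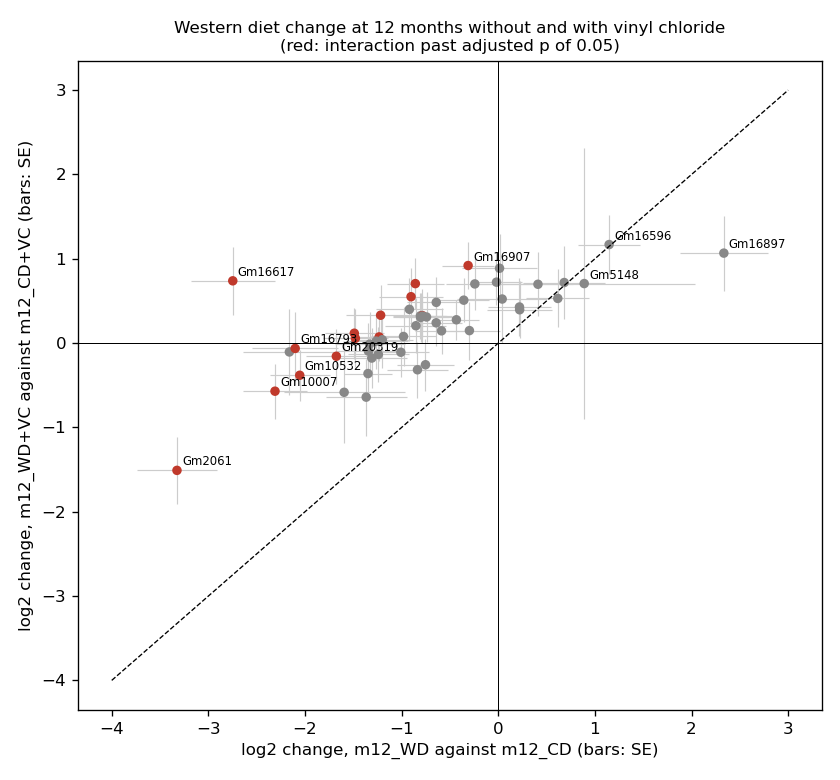
Log2 change between diets at 12 months with vinyl chloride (vertical) against the same change without it (horizontal) for 52 Gm entries, with standard errors as bars and a dashed line of equal change. Red points passed the interaction test. Most points lie above the line, and Gm16617 stands apart at -2.75 without and 0.74 with exposure.

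The test of that difference itself, the diet by vinyl chloride interaction at 12 months, passed in 14 of 52 members, all toward higher values, where 9.77% of all genes passed (3.55% higher and 6.22% lower). The median interaction was 1.08 over members and -0.04 over all genes, and 1.07 to 1.18 above the median of all genes under each of the 4 scalings. Over all genes the split by direction turned with scaling, from 149 higher and 261 lower as reported to 40 and 465 with RLE and 325 and 88 with scaling on no-overlap genes. The members called were all higher under each, at 3 with RLE and 21 with scaling on no-overlap genes. This comparison shares its libraries with those above. Of 131 Rik entries with 500 or more counts 16 passed, all higher, and of 1423 other entries 212 (79 higher, 133 lower). The median interaction was 0.88 over these Rik entries and 0.40 over these other entries.

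Gm16617 had the largest interaction. Without exposure its diet change was -2.75, with exposure it was 0.74, and the interaction was 3.49 on the log2 scale (log2 change 3.49, SE 0.59, edgeR adjusted p = 0.00134). Its 3 m12_WD+VC libraries held 63.6, 64.0 and 87.2 CPM, beside 56.6, 31.7 and 39.0 CPM in m12_CD+VC. The exposed Western-diet libraries were at or above the middle m12_CD library, and m12_WD was the lowest group.

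Gm10532 held 781, 666 and 1161 CPM in m12_CD+VC and 707, 647 and 631 CPM in m12_WD+VC, with an interaction of 1.67, SE 0.43, edgeR adjusted p = 0.0138. Gm10007 held 408, 658 and 773 CPM and 481, 328 and 408 CPM, with an interaction of 1.74, SE 0.46, edgeR adjusted p = 0.0167. Its partner Gfra1 had an interaction of the opposite sign (log2 change -2.60, SE 0.84, edgeR adjusted p = 0.0455). Gm20319 held 133, 135 and 172 CPM and 84.8, 153 and 141 CPM, with groups that overlapped and an interaction of 1.52, SE 0.45, edgeR adjusted p = 0.0313.

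Gm21188 (chr13:120034605-120052194, minus strand), a protein-coding model with no partner, held 617, 555 and 398 CPM in m12_CD and 204, 177 and 342 CPM in m12_WD. With exposure it held 374, 317 and 453 CPM and 339, 367 and 508 CPM, which overlap, and the interaction was 1.61, SE 0.43, edgeR adjusted p = 0.0175. Gm10785 (chr16:91688898-91715642, plus strand), antisense to the oxidoreductase-like gene Cryzl1, held 265, 206 and 266 CPM, 191, 174 and 165 CPM, 153, 229.9 and 159 CPM and 219, 279 and 328 CPM in m12_CD, m12_WD, m12_CD+VC and m12_WD+VC. Its diet change was negative without exposure and positive with it, and the interaction was 1.56, SE 0.42, edgeR adjusted p = 0.0195. The 14 calls became 2 without m12_WD+VC 3, 3 without m12_CD 1, 4 without m12_CD+VC 2 or m12_WD 2 and 7 without m12_WD+VC 1, and DESeq2 left 1. Calls over all genes fell as well, from 410 of 4198 as reported. Without these libraries, in the order given, they were 106 of 4668, 157 of 4763, 148 of 4627, 180 of 4538 and 245 of 4690. DESeq2 called 252 of 3221. Of the 6 entries just described, Gm16617 passed in each of its 20 alternatives, and the others lost the call in at least 1.

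**Figure D5:**
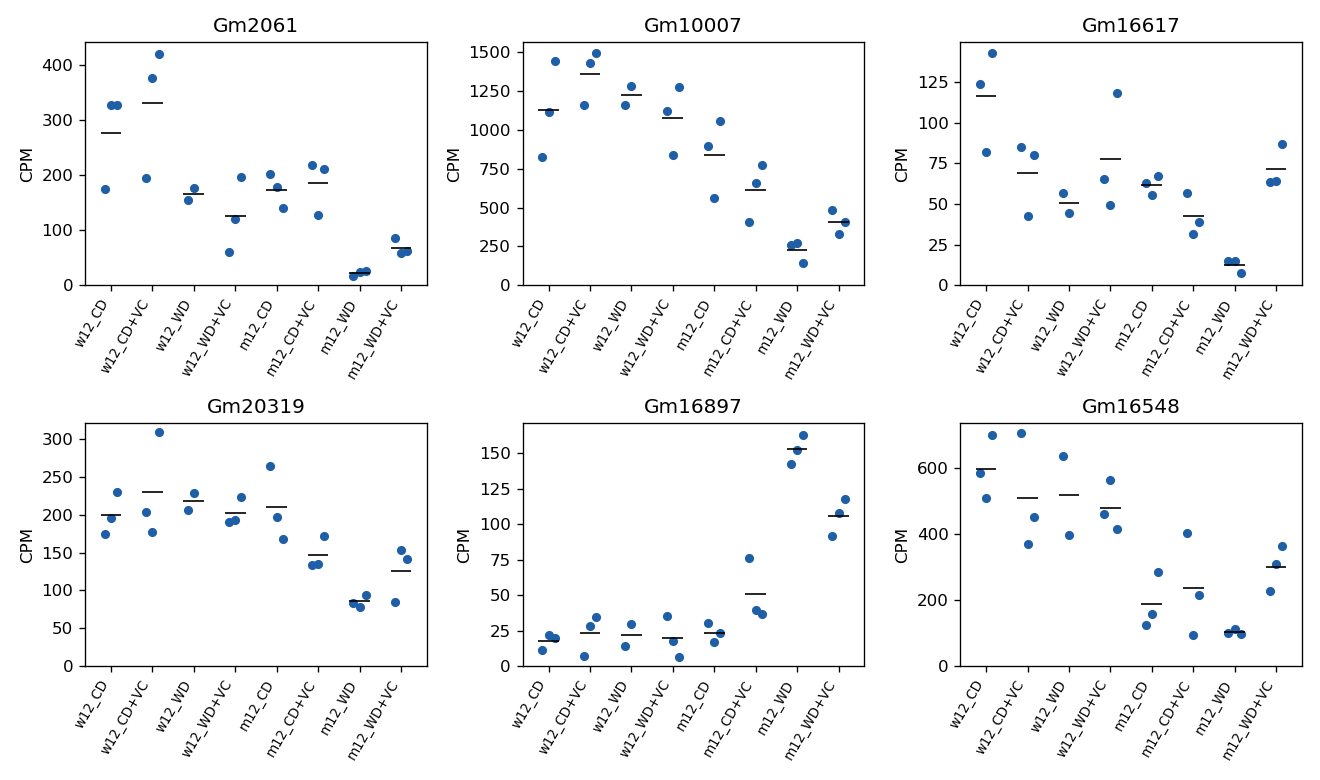
CPM per library (points, linear axis from 0) and group mean (line) for 6 Gm entries in 8 groups, with the 607-count library left out of w12_WD. Gm2061, Gm10007, Gm16617 and Gm20319 are lowest in m12_WD, Gm16897 is highest there, and Gm16548 is higher at 12 weeks than in the 12-month groups without exposure.

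Vinyl chloride on the control diet lowered 4 members at 12 months, where 5.17% of all genes passed (3.95% higher and 1.21% lower). These m12_CD+VC and m12_CD libraries share the control group with the diet comparison above. Gm12992 held 3610.1, 4224 and 4414 CPM in m12_CD and 2643, 2465 and 3209 CPM in m12_CD+VC and fell (log2 change -0.90, SE 0.27, edgeR adjusted p = 0.0471), as did its partner, the splicing factor gene Srsf4 (log2 change -0.93, SE 0.28, edgeR adjusted p = 0.0487). Gm16062 held 717, 774 and 753 CPM and 538, 484 and 575 CPM and fell (log2 change -0.84, SE 0.24, edgeR adjusted p = 0.0361).

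Gm12359 (chr11:98797707-98810087, minus strand), antisense to Casc3, a gene of the exon junction complex, held 499.8, 415 and 455 CPM and 371, 293 and 281 CPM and fell (log2 change -0.90, SE 0.28, edgeR adjusted p = 0.04998). In all 4 entries the groups did not overlap, and over the 52 the groups were separated downward in 8 and upward in 1, where 5.67% and 25.1% of all genes were. Over the 52, 48 had a negative log2 change, with a median of -0.64 against 0.07 for all genes. Entries of like depth were mostly lower too. Of 131 Rik entries with 500 or more counts 119 were below 0, with a median of -0.51. Of the 1423 other entries of that depth 939 were, with a median of -0.36. By plain CPM 44 of 52 had the lower mean with exposure, with a median ratio of 0.806. The calls were near the threshold: 0 were left without m12_CD 1, without m12_CD 3 or without m12_CD+VC 2, 1 without m12_CD+VC 1, and 0 with RLE or DESeq2. Calls over all genes without these libraries, in the same order, were 2 of 4763, 97 of 4669, 12 of 4627 and 77 of 4716. DESeq2 called 249 of 3872. Over all genes the calls were 166 higher and 51 lower as reported, 405 and 7 with RLE, and 44 and 151 with scaling on no-overlap genes, which called 6 members, all lower. The share of counts in no-overlap entries differed here as well, at 15.5% ± 3.58 in m12_CD and 26.5% ± 4.64 in m12_CD+VC, and its part in the members' change was not tested. Summed hepatocyte markers were 2427 to 8844 CPM in m12_CD and 14919.5 to 32395 CPM in m12_CD+VC. Those of Kupffer cells and macrophages were 30.1 to 103 and 143 to 201 CPM, and those of stellate cells 0 to 14.9 and 57.3 to 79.3 CPM. Erythroid markers, 1 of 5 of them detected, were at 18.1 to 29.8 and 10.4 to 17.0 CPM. These 4 sums did not overlap between the groups, and their part in the members' change was not tested.

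Vinyl chloride on the Western diet raised 2 members at 12 months, where 0.596% of all genes passed. Gm16617 rose from 14.8, 14.7 and 7.27 CPM in m12_WD to 63.6, 64.0 and 87.2 CPM in m12_WD+VC (log2 change 2.66, SE 0.43, edgeR adjusted p = 2.74e-04), and no m12_WD library came near the exposed ones. Arhgef40 had a log2 change 0.44, SE 0.36, edgeR adjusted p = 0.646. Gm16548 held 102, 113 and 97.7 CPM and 226, 309 and 364 CPM and rose (log2 change 1.61, SE 0.36, edgeR adjusted p = 0.0223), with non-overlapping groups. Its call was lost without any single one of the 3 m12_WD libraries and without m12_WD+VC 2 or 3, with edgeR adjusted p up to 0.21. The members' median log2 change was 0.38, with 42 of 52 above 0, beside -0.04 over all genes. The 131 Rik entries with 500 or more counts were much alike, with a median of 0.35 and 106 above 0. Over the 1423 other entries of that depth the median was -0.005, with 704 above 0. The libraries were separated upward in 18 of the 52 and downward in 1, where 8.98% of all genes were separated in each direction. Summed markers of Kupffer cells and macrophages were 355 to 420.0 CPM in m12_WD and 120.2 to 293 CPM in m12_WD+VC, and those of stellate cells 90.4 to 118 and 41.1 to 81.1 CPM, without overlap. The part of these differences in the members' change was not tested.

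At 12 weeks few members changed. The diet comparison without exposure called 0 of 52 (0.0238% of all genes, 4 members at an unadjusted p under 0.05). Exposure called 0 on the control diet (0% of all genes, 2 at an unadjusted p under 0.05) and 0 on the Western diet (0% of all genes, also 2), by edgeR, and the DESeq2 and limma-voom fits also called 0 in these comparisons. The groups with w12_WD rest on 2 libraries of usable depth. The diet comparison with exposure called 1 member, where 0.262% of all genes passed. Gm6297, beside Dnaja1, held 1505, 951 and 1040.0 CPM in w12_CD+VC and 3269, 2343 and 2354 CPM in w12_WD+VC and rose (log2 change 1.23, SE 0.27, edgeR adjusted p = 0.0345). Dnaja1 showed a log2 change 0.03, SE 0.33, edgeR adjusted p = 0.997. In both deeper w12_WD libraries Gm6297 held 1153 and 1475 CPM, and in m12_WD+VC 1195, 1087 and 1470.4 CPM. The call was lost without any of 5 of the 6 libraries compared, up to an edgeR adjusted p of 0.415 without w12_WD+VC 1.

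Time on the control diet changed 1 member, where 1.36% of all genes passed. Gm16548 held 584, 509 and 699 CPM in w12_CD and 123, 157 and 285 CPM in m12_CD and fell (log2 change -1.57, SE 0.35, edgeR adjusted p = 0.0166). Selp, which encodes P-selectin, held 979, 1027 and 1165 CPM and 1081, 867 and 691 CPM and had a log2 change -0.13, SE 0.27, edgeR adjusted p = 0.885. The call was lost without w12_CD 3 (0.0701), m12_CD 1 (0.0888) or m12_CD 2 (0.087), as edgeR adjusted p. The median log2 change over members was 0.25, with 35 of 52 above 0, against -0.006 over all genes. It was 0.22 over the Rik entries with 500 or more counts and 0.06 over the other entries of that depth. Libraries were separated upward in 10 members and downward in 8, where 6.5% and 12% of all genes were. Summed markers of sinusoidal endothelium were 27.6 to 61.9 CPM in w12_CD and 12.9 to 24.1 CPM in m12_CD, and their part in these values was not tested.

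Over all of these comparisons, 34 members passed in at least 1, and 16 passed neither there nor over the 8 groups together. The share of all genes that passed in at least 1 comparison is not at hand. These counts are therefore no measure of how members differ from other genes. Among the 16 were Gm867, Gm166, Gm11747 and Gm10677 of the 12 with most counts. In the test over the 8 groups, Gm867 (edgeR adjusted p = 0.0597) passed in 7 of 31 alternatives and Gm11747 (edgeR adjusted p = 0.195) in 2. Gm166, opposite Phkg2, held 1403, 1358 and 1206 CPM in m12_CD and 1288, 1409.7 and 1346 CPM in m12_WD, which overlap (log2 change -0.36, SE 0.26, edgeR adjusted p = 0.325). Gm867 held 2144, 2092 and 1832 CPM and 2694, 1672 and 4775 CPM, with the highest value of all 23 libraries in m12_WD 3 (log2 change 0.22, SE 0.34, edgeR adjusted p = 0.668), while Chchd10 rose (log2 change 1.03, SE 0.35, edgeR adjusted p = 0.0282).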

How the data were processed

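Per the labels' protocols, liver RNA was freed of ribosomal RNA and prepared with a TruSeq RNA v2 kit. The submitters' processing notes name Trimmomatic 0.38, HISAT2 2.1.0, HTSeq 0.11.2 and mm10. Gene annotation, strand setting and filters used in counting were not given in the sources used here. A table of the series holds whole-number counts deposited by the authors, with 24421 entries, each naming a gene. One file a library holds log2 values deposited by the authors. They equalled log2(count / size factor + 1) with 0 values off by more than 1e-06. Size factors rested on 270 genes. All tests used the counts.

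The members and lists were chosen with earlier results of these data known. Named members were the 12 with most counts, up to 6 per direction and comparison with the smallest adjusted p (3 at 12 weeks) whose groups did not overlap, and their partners. Interactions had no overlap condition. Other names were chosen after values were seen and are said to be where printed.

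Genes passing edgeR's expression filter (4198) were fitted in R 4.3.3 with edgeR 4.0.16 (TMM, robust quasi-likelihood, 8 groups, common biological coefficient of variation 0.317). P-values were Benjamini-Hochberg adjusted over all 4198 genes, with a threshold of 0.05. The fit was tested on simulated data. CPM is the count scaled to a library total of 1000000 and carries no TMM factor. Markers of 7 cell types were summed per library. Those of lymphocytes ran from 0 to 18.7 CPM and Nkg7 was at 0, and those of erythroid cells from 7.37 to 53.9 CPM.

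No libraries were identical, and libraries of 1 group differed beyond counting noise. Only w12_WD 3, with 607 counts, differed from the other w12_WD libraries by about counting noise, which its depth cannot resolve. All 24 were counted once. Alternatives tried were DESeq2 1.42.0, limma-voom (3.58.1) with quality weights, RLE size factors, omission of the expression filter, a replicate block, scaling on genes without an opposite-strand overlap, the compared groups alone and leaving out each library. Library totals alone as scaling was chosen after seeing the data. The values and partner of 1 of the 4 members that fell with vinyl chloride on the control diet are not reported here.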

Additional observations from a re-analysis of the deposited data

Results flagged for a closer look

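In 14 of the 52 entries, the diet effect at 12 months with vinyl chloride differed from that without it by edgeR's interaction test, and each value is the first effect minus the second on the log2 scale. The value was 3.49 for Gm16617, 1.67 for Gm10532, 1.74 for Gm10007, 1.61 for Gm21188, 1.56 for Gm10785 and 1.52 for Gm20319. It was 1.31 for Gm12359, 2.04 for Gm16793, 1.82 for Gm2061 and 1.54 for Gm15708. It was 1.23 for Gm16907, 1.11 for Gm19897, 1.55 for Gm16548 and 1.45 for Gm11696. The edgeR adjusted p-values ran from 0.00134 for Gm16617 to 0.0473 for Gm11696, and the last 8 entries listed were named because the test called them.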

How the results depend on the processing

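Each comparison was recomputed under the alternatives that apply to it, which were 31 for the test over the 8 groups, 20 for the interaction and 14 for each comparison of a pair of groups. Fitting the compared groups alone does not apply to the 8-group test, and only libraries of the compared groups were left out. For named members, 617 of 730 alternative values kept the side of the threshold, and the direction where the test has one. Another 94 lost the call and 19 gained one. The test over the 8 groups has no direction, so its values for 12 members, part of the 730, could not reverse. All 19 gains were in that test. Among the comparisons with a direction 0 reversed. Counts of called members that moved by over 1.5 times were as follows, and the cause was not tested. With RLE scaling, 0 were called for m12 CD+VC against CD and 3 for the interaction. Without an expression filter, 0 were called for m12 WD+VC against CD+VC, 0 for m12 CD+VC against CD and 2 for w12 WD+VC against CD+VC. DESeq2 called 14 for m12 WD against CD, 0 for m12 CD+VC against CD and 1 for the interaction. Limma-voom called 3 for m12 WD+VC against CD+VC, 4 for m12 WD+VC against WD, 3 for w12 WD+VC against CD+VC and 4 for time. Scaling on no-overlap genes called 0, 1, 0 and 0 in these same comparisons. Library totals alone, chosen after seeing the data, called 1 for m12 CD+VC against CD and 6 for the interaction, and for m12 WD against CD 23, 4 higher and 19 lower. The compared groups alone called 0 for m12 CD+VC against CD.

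Leaving out each library gave 24 to 31 calls over the 8 groups, 20 to 31 for m12 WD against CD, 0 to 1 for m12 WD+VC against CD+VC and 0 to 5 for m12 CD+VC against CD. It gave 1 to 2 for m12 WD+VC against WD, 2 to 19 for the interaction, 0 to 2 for w12 WD+VC against CD+VC, 0 to 1 for time and 0 for the other 12-week comparisons. Over all genes these fits called 655 to 1094 for m12 WD against CD, 2 to 245 for m12 CD+VC against CD and 106 to 634 for the interaction. Same-numbered libraries showed no shared deviation (median r 0.00116 over 84 pairs, 14 of them over 0.1, and 4 of 24 libraries correlating best with their own number). No pairing by number was seen, but correlations over libraries of this depth cannot exclude one. With the replicate block, 26 were called over the 8 groups, 33 for m12 WD against CD, 3 for m12 CD+VC against CD and 16 for the interaction, and the other counts were as reported. Members near 10 counts a library, such as Gm16617 in m12_WD, are limited by depth.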

Other observations

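Gm5148 (chr3:37714190-37724490, minus strand), a protein-coding model with no opposite-strand partner, varied widely between libraries of the same group and passed no test, and it is named here after its values were seen. The m12_WD libraries held 348, 322 and 49.9 CPM, the m12_CD libraries 15.1, 38.3 and 248 CPM, and the w12_CD libraries 11.6, 15.8 and 251 CPM. High and low libraries occurred in both diets and at both times, so its level does not follow the labelled groups in these data.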
